A study of Drosophila melanogaster with 2 samples.

Results

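The genes described here are 33 genes of neuronal differentiation and synapse function, of 13968 protein-coding genes in the annotation. They were chosen by name from knowledge of the nervous system, as genes whose main known role lies outside the mesoderm. The rule uses no measured value, but the genes, their roles and the further lists below were chosen with earlier results of these data known. They fall into 5 roles: 6 neural regulators, 10 genes of synaptic vesicles and the active zone, 8 ion channels and receptors, 2 genes of neuronal structure and 7 genes of transmitter synthesis and transport. All 33 were found in the annotation by their names.

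The data are chromatin immunoprecipitation with sequencing (ChIP-seq) peaks from Drosophila melanogaster embryos with a stable transgene that encodes Twist joined at its C-terminus to GFP, precipitated with an anti-GFP antibody. Both biological replicates belong to the single group, Twist-GFP whole embryos of mixed sex aged 2 to 12 h by the source description (the separate age label is not readable as an age), so chromatin of every tissue was sampled, and no sample without the fusion was compared here. Each replicate has a list of 30000 peaks and a further list of 30000 comes from both replicates pooled. The authors also kept 6516 peaks by the irreproducible discovery rate (IDR), a measure of how well peak ranks repeat between replicates, and these are the 6516 highest-signal peaks of the pooled list.

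Twist is a basic helix-loop-helix factor that specifies the mesoderm and binds E-boxes, short motifs of the form CANNTG, with CATATG and CACATG among its known sites. Neurons and glia of the fly arise mostly from the ectoderm: neuroblasts divide to give ganglion mother cells, whose daughters become neurons that express the RNA-binding protein Elav and, later, the machinery of transmitter release. The listed genes span that sequence from the progenitor to the synapse.

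A peak's summit, its point of highest signal, was assigned to a gene where it lay in the gene body or within 5 kb of it, and each summit was also assigned to the gene with the nearest annotated start. A summit in the window of a gene need not act on that gene. Ranks are by the authors' signal within a list, with 1 the highest. Positions are those of the dm6 assembly, and the bases shown are from the plus strand of the same release in RefSeq.

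The summits that lay nearest to a start of the neuronal gene itself were 9 in number, and all are shown, as the summits assigned to these genes by the nearest start, in 101 bases centred on the summit. Capitals mark every E-box (CANNTG, all 10 types, both strands), and a sequence without capitals has none.
elav summit of IDR rank 211, chrX:523442-523542: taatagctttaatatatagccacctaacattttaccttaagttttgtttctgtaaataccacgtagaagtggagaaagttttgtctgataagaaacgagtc
elav summit of IDR rank 4041, chrX:522553-522653: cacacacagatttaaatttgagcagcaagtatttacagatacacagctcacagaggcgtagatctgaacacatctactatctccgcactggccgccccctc
pros summit of IDR rank 1901, chr3R:11369665-11369765: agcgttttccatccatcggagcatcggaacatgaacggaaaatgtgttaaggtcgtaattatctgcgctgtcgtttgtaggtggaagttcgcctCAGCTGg
pros summit of IDR rank 2282, chr3R:11378598-11378698: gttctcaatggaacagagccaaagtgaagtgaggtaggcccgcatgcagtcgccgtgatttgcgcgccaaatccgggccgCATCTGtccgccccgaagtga
pros summit of IDR rank 5042, chr3R:11368803-11368903: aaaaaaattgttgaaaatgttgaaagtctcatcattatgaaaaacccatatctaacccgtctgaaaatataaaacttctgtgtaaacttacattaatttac
pros summit of IDR rank 5113, chr3R:11367945-11368045: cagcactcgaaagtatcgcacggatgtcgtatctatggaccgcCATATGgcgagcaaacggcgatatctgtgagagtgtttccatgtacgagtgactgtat
Syx1A summit of IDR rank 3413, chr3R:24099164-24099264: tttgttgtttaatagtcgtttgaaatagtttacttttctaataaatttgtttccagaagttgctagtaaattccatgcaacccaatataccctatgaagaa
eag summit of IDR rank 3708, chrX:14957300-14957400: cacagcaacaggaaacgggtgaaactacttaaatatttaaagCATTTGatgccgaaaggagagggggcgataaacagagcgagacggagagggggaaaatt
nAChRalpha7 summit of IDR rank 4778, chrX:19348487-19348587: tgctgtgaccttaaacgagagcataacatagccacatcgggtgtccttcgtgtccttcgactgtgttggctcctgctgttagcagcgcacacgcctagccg

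For contrast, 4 summits in the windows of neuronal genes lay nearest to the start of another gene. They are shown because they include the strongest summit in the windows of the 33 genes and the 3 there with repeated or paired E-boxes.
Syx1A window, nearest start CG18428, IDR rank 41, chr3R:24109140-24109240: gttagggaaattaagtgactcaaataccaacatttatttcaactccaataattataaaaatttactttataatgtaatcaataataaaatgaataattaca
Csp window, nearest start CG11523, IDR rank 315, chr3L:22266622-22266722: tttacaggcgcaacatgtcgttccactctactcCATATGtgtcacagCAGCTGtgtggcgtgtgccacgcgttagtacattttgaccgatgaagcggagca
pros window, nearest start KP78a/KP78b, IDR rank 676, chr3R:11352482-11352582: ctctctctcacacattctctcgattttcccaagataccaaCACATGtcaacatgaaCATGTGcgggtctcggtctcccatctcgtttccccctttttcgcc
Appl window, nearest start vnd, IDR rank 5532, chrX:581920-582020: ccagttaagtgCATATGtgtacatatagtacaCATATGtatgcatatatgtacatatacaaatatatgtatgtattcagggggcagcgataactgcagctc

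With 5 kb on each side, Twist-GFP peaks lay within reach of the neuronal genes about as often as of all protein-coding genes. They seldom lay nearest to the genes' own starts. An IDR summit was present in the window of 17 of the 33 genes, 51.5% (95% Wilson interval 35.2 to 67.5%), against 50.1% of all protein-coding genes. The neuronal genes are long, with a median body of 27.7 kb against 2.2 kb for all protein-coding genes, and 25 of them reach 10 kb. Of protein-coding genes of 10 kb or longer, 66.4% had an IDR summit. When the shares of protein-coding genes in the same 6 length classes were added over the 33 genes, they came to 21.3 genes, above the 17 observed. In the gene body alone, without the flanks, 6 of the 33 had one, against 13.2% of all protein-coding genes and a class sum of 14.4. With 1 kb on each side 8 of the 33 had one, against 30.9% and a class sum of 17.7. With 10 kb on each side 24 of the 33 had one, against 63.7% and a class sum of 24.5. Of the 12 genes of 20 to 50 kb, 6 had an IDR summit, against 66.8% of all protein-coding genes of that length.

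The gap was wider for the gene's own start. Only 5 of the 33 genes, elav, pros, Syx1A, eag and nAChRalpha7, had an IDR summit in the window whose nearest start was their own, 15.2% (6.65 to 30.9%), against 22.2% of all protein-coding genes and 47.2% of those of 10 kb or longer. The length classes sum to 14.4 genes. An IDR summit within 500 bp of an own start was found at 2 genes, elav and nAChRalpha7, or 6.06% (1.68 to 19.6%), against 20.9% of all protein-coding genes, 30.0% of those of 10 kb or longer and a class sum of 9.3. Without replicate 2, with the 6516 highest-signal peaks of replicate 1 in place of the IDR list, pros and Syx1A joined them and the count was 4. With 1 group there is no test between conditions, and these counts are descriptions whose intervals cover the counting of genes alone.

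**Figure D1:**
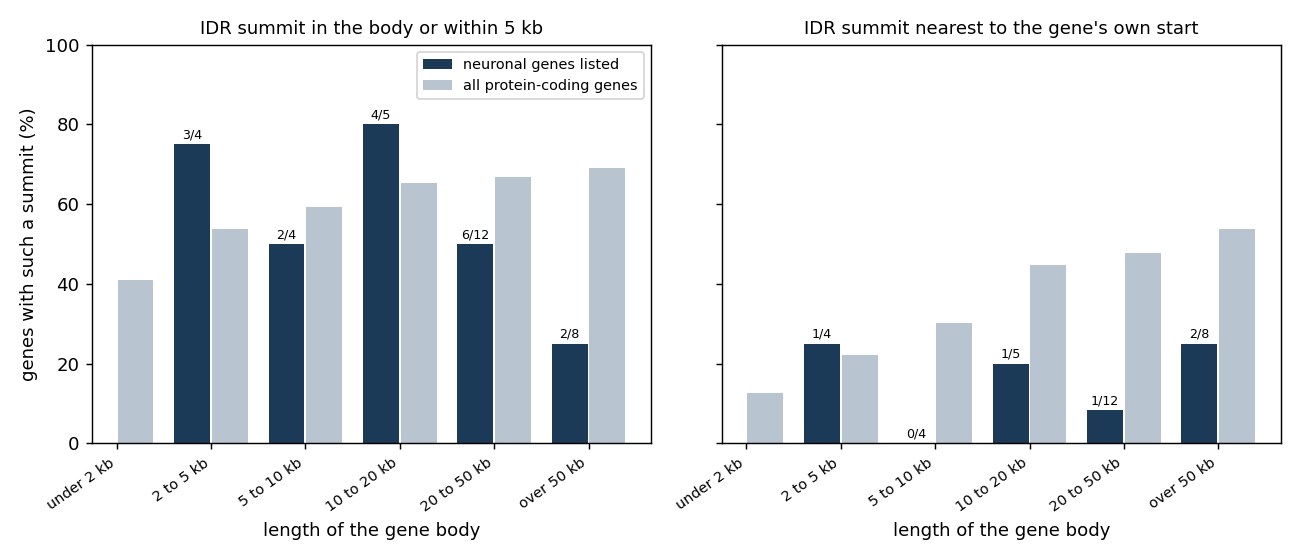
Share of genes (%) with an IDR summit in the body or within 5 kb (left) and with one nearest to their own start (right), by length of the gene body, for the neuronal genes listed and for all protein-coding genes. Fractions give the neuronal genes with such a summit over all neuronal genes of the class; no listed gene is under 2 kb. In the class of 20 to 50 kb, 1 of 12 neuronal genes has an own-start IDR summit, against 47.8% of protein-coding genes.

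The larger pooled list gave higher counts for the neuronal genes and for the background. A pooled summit lay in the window of 24 of the 33 genes, 72.7% (55.8 to 84.9%), against 70.4% of all protein-coding genes and 83.7% of those of 10 kb or longer, with a class sum of 26.8. For a pooled summit nearest to an own start the count was 14 of 33, 42.4% (27.2 to 59.2%), against 46.5% of all protein-coding genes, 69.8% of the long ones and a class sum of 21.9. Within 500 bp of an own start it was 12 of 33, 36.4% (22.2 to 53.4%), against 45.4% and 61.7%, with a class sum of 19.7.

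The windows of the 33 genes held 29 distinct IDR summits. Of these, 9 lay nearest to a start of the neuronal gene and 20 nearest to a start of another gene, 12 of them within 500 bp of it. By position, 14 were in promoters (within 500 bp of any start), 11 in introns, 3 between genes and 1 in a 3' UTR. The promoter share was 48.3% (31.4 to 65.6%), against 39.5% (38.3 to 40.7%) of all 6516 IDR summits. The 9 summits near own starts had a median IDR rank of 3710 and the 20 near other genes one of 2670, against 3260 for the whole list.

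**Figure D2:**
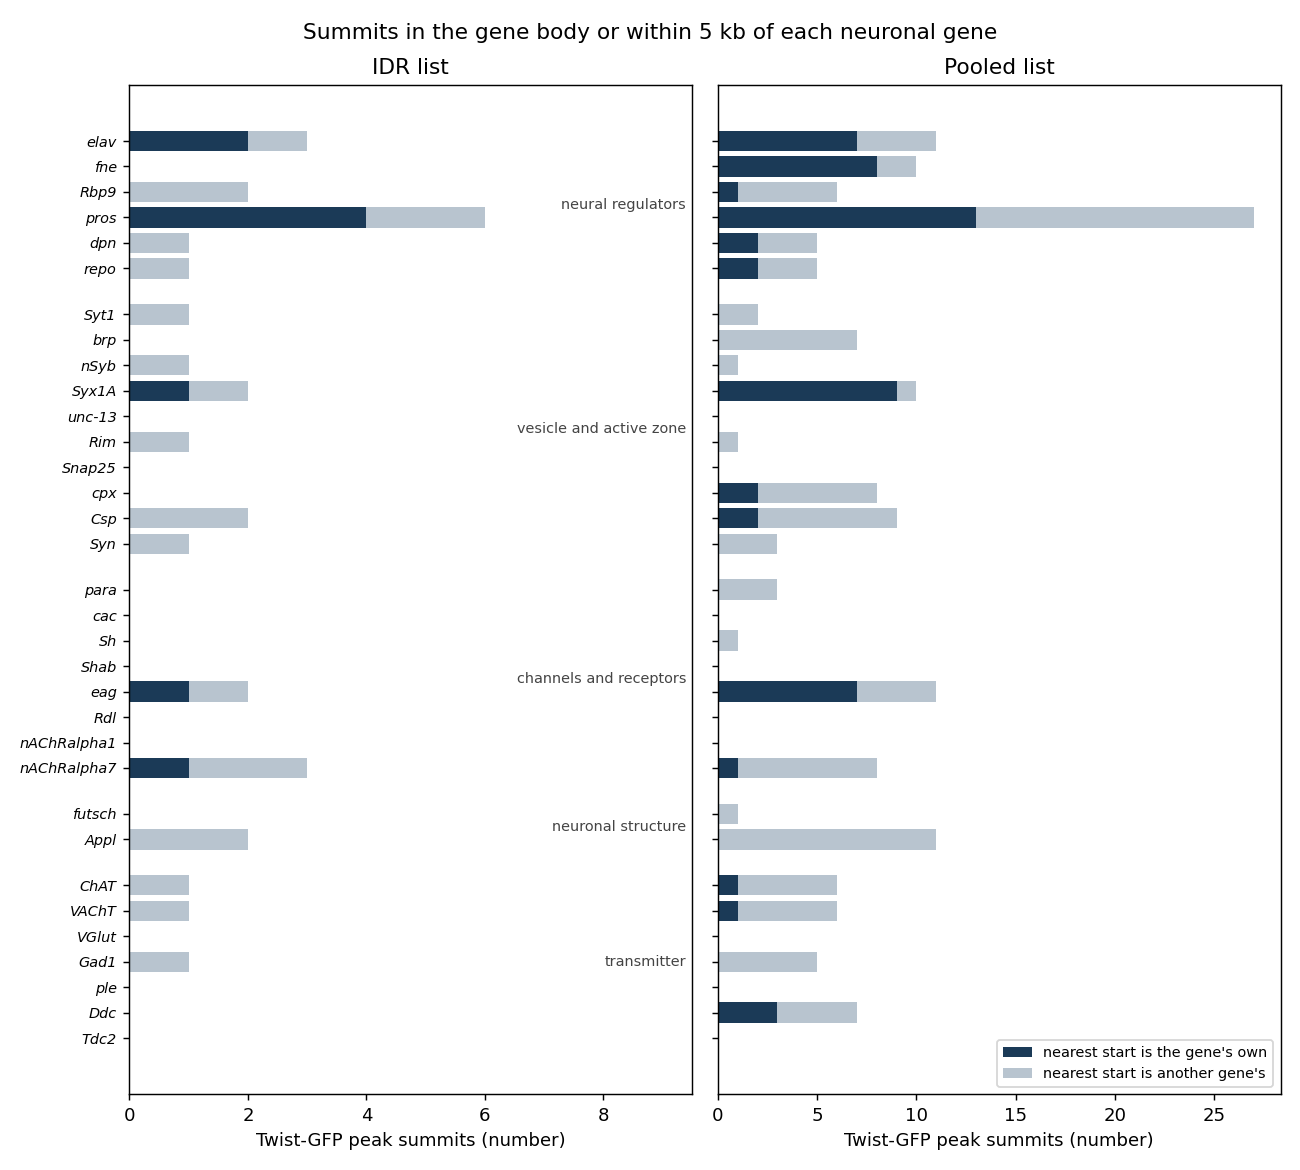
Number of Twist-GFP summits in the body or within 5 kb of each of the 33 neuronal genes, in the IDR list (left) and the pooled list (right), grouped by role. Dark bars count summits whose nearest start is the gene's own and light bars those nearest to another gene's start; pros has the most in each list, 6 and 27.

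Neural regulators held the most summits. An IDR summit was present at 5 of 6, against a class sum of 3.7, and 2 of 6 had one nearest to their own start, against 2.4. All 6 had a pooled summit nearest to their own start, against a class sum of 3.8. Together their windows, 206.5 kb in all, held 3.1 pooled summits per 10 kb.

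elav encodes the RNA-binding protein used as a marker of neurons, and lies at chrX:509235-523226 on the minus strand. Its strongest summit, 266 bp upstream of a start shared with the long non-coding RNA enrr and inside the overlapping gene arg, ranked 211 in the IDR list, 174 in replicate 1 and 277 in replicate 2. It is the highest-ranked of the 9 own-start summits, and its 101 bases, shown above, hold no E-box. A second elav summit, 623 bp downstream of that start in an intron, ranked 4041 in the IDR list, 3756 in replicate 1 and 5187 in replicate 2. The third lay nearer to CG4293 and fell in the window of Appl too.

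pros encodes a homeodomain protein that passes from the neuroblast into the ganglion mother cell, and lies at chr3R:11328480-11407627 on the plus strand. It had 6 IDR summits, 4 of them nearest to one of its own starts at distances of 3073 to 5860 bp. The 2 strongest of those 4 ranked 2111 and 2576 in replicate 1, and 1699 and 2189 in replicate 2. None of the 4 was a promoter summit. The window's strongest summit, rank 676, lay 599 bp from the start of KP78a and KP78b, genes nested in a pros intron. The remaining summit, rank 891, lay 50 bp upstream of Irbp. Just outside the IDR list, a pooled summit 15 bp from a pros start ranked 6537, with rank 5562 in replicate 1 and 10517 in replicate 2.

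The other ELAV-family genes differed from elav. fne had no IDR summit, though its best pooled summit ranked 6636, just below the end of that list, and 8 of its 10 pooled summits lay nearest to its own starts. Rbp9 had 2 IDR summits, one 156 bp upstream of gammaTub23C at rank 721 and one in its 3' UTR at rank 5679. The latter was nearest to the start of Ts, at 2538 bp. dpn, a basic helix-loop-helix repressor of neuroblasts, had 1 at rank 2615, nearest to pnut. repo, a homeodomain factor of glia, had 1 at rank 6233, 87 bp upstream of 14-3-3epsilon, and this summit ranked 4288 in replicate 1 but 16482 in replicate 2.

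Genes of vesicles and the active zone had an IDR summit at 6 of 10, against a class sum of 6.4, but nearest to an own start at 1 of 10, against 4.2, and within 500 bp of one at none, against 2.8. The exception was Syx1A, the target-membrane syntaxin of the SNARE complex, at chr3R:24101600-24105763 on the minus strand. Its own-start summit ranked 3413 in the IDR list, 2936 in replicate 1 and 4857 in replicate 2. That summit lay 6549 bp from the Syx1A start, beyond the end of the gene and inside an intron of eIF4EHP. The strongest summit in the windows of the 33 genes, IDR rank 41, with rank 29 in replicate 1 and 82 in replicate 2, lay in the same window but 146 bp upstream of CG18428. A pooled summit 24 bp from the Syx1A start ranked 7796, with rank 5431 in replicate 1 and 11008 in replicate 2.

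In the windows of the other vesicle genes, the neighbouring gene lay closer to the summit. Csp, a chaperone of synaptic vesicles, had a summit of rank 315 at 7 bp from CG11523 and one of rank 5377 at 134 bp upstream of Rich. The summit of rank 315 also lay 710 bp from a Csp start. Rim, an active-zone scaffold, had one of rank 1760 nearest to cpo, and Syt1, the calcium sensor of release, one of rank 3562 at 18 bp from colt. For nSyb, the vesicle SNARE, the summit of rank 2734 was 134 bp upstream of Bgb, and for Syn, synapsin, that of rank 4036 was nearest to Timp, whose start lies in a Syn intron. These last 2 were found in replicate 1 and had no summit of replicate 2 within 100 bp. brp, the active-zone scaffold, and cpx, complexin, had 7 and 8 pooled summits but no IDR summit. unc-13, which primes vesicles, and Snap25, the other target-membrane SNARE, had no pooled summit.

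**Figure D3:**
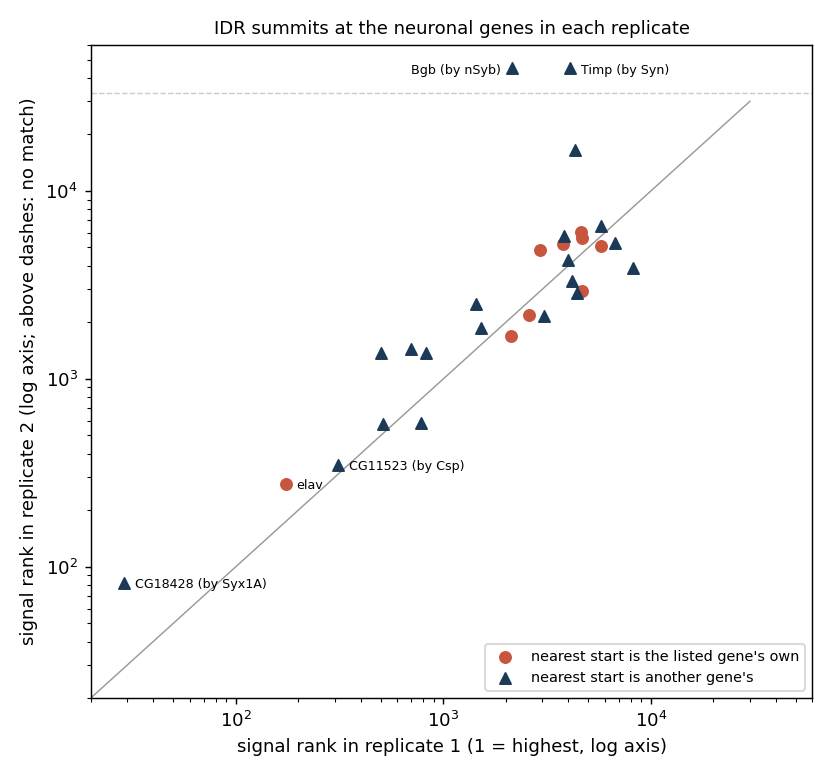
Signal rank of the 29 IDR summits at the neuronal genes in replicate 1 (x axis) and replicate 2 (y axis), both on log axes with 1 the highest; the line marks equal ranks. Circles are summits nearest to the listed gene's own start and triangles those nearest to another gene's; the 2 above the dashes, near Bgb and Timp, have no replicate 2 summit within 100 bp.

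Across both replicates, 27 of the 29 summits were matched within 100 bp, 93.1% (78.0 to 98.1%), against 6218 of 6516, 95.4% (94.9 to 95.9%), for the IDR list. Of the 155 distinct pooled summits in these windows, 58.7% (50.8 to 66.2%) were in both replicates, against 55.6% (55.0 to 56.1%) of all 30000.

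Channels and receptors had the lowest density of pooled summits of the 5 roles. An IDR summit was present at 2 of 8, against a class sum of 5.5, and a pooled summit at 4 of 8, against 6.5. Their windows add up to 590.8 kb and held 0.389 pooled summits per 10 kb. Both genes with an IDR summit had one nearest to their own start, against a class sum of 4.2 for the role.

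eag, a voltage-gated potassium channel gene at chrX:14955477-15009989 on the plus strand, had its own-start summit 1873 bp from a start, in an intron, at rank 3708, with rank 4681 in replicate 1 and 2947 in replicate 2. A stronger summit in the window, rank 507, lay 273 bp upstream of a pdgy start, inside the annotated pdgy gene. nAChRalpha7, a nicotinic acetylcholine receptor subunit gene at chrX:19327075-19348447 on the minus strand, had a promoter summit 90 bp upstream of its start at rank 4778, with rank 4669 in replicate 1 and 5598 in replicate 2. Its other 2 IDR summits, ranks 989 and 4001, lay nearest to out. para, the voltage-gated sodium channel, had 3 pooled summits and Sh, the Shaker potassium channel, had 1, with best ranks of 16650 and 25207. No pooled summit was found at cac, a voltage-gated calcium channel, Shab, a potassium channel, Rdl, a GABA receptor, or nAChRalpha1, another nicotinic subunit.

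Of the 2 genes of neuronal structure, Appl, the fly relative of the amyloid precursor protein, had 2 IDR summits, nearest to CG4293 and, at rank 5532, to vnd. All 11 of its pooled summits lay nearest to starts of other genes. futsch, a microtubule-associated protein of axons, had no IDR summit and 1 pooled summit, of rank 24048.

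Genes of transmitter synthesis and transport had an IDR summit at 3 of 7, against a class sum of 4.4, and none had one nearest to its own start, against 2.6. ChAT, choline acetyltransferase, and VAChT, the vesicular acetylcholine transporter, lie in one locus and shared a single summit of rank 1585, 348 bp from the start of lncRNA:CR46265. Gad1, which makes GABA, had one of rank 4414 in an intron of wit. Ddc, dopa decarboxylase, had 7 pooled summits, 3 of them nearest to its own start, with a best rank of 12570. VGlut, the vesicular glutamate transporter, ple, tyrosine hydroxylase, and Tdc2, tyrosine decarboxylase, had no pooled summit.

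Altogether 9 of the 33 genes had no pooled summit. Such a summit was also absent at 29.6% of all protein-coding genes and at 16.3% of those of 10 kb or longer. The replicate lists were searched for the 9 neuronal genes. Shab, nAChRalpha1 and VGlut had a replicate 1 summit, of ranks 24885, 19335 and 22823. unc-13 had 2 replicate 2 summits, the better of rank 11169. Snap25, cac, Rdl, ple and Tdc2 had none in either list. The depth of the libraries is unknown and each list is limited to 30000 peaks, so these genes were without a peak in the lists, not shown to be without binding.

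**Figure D4:**
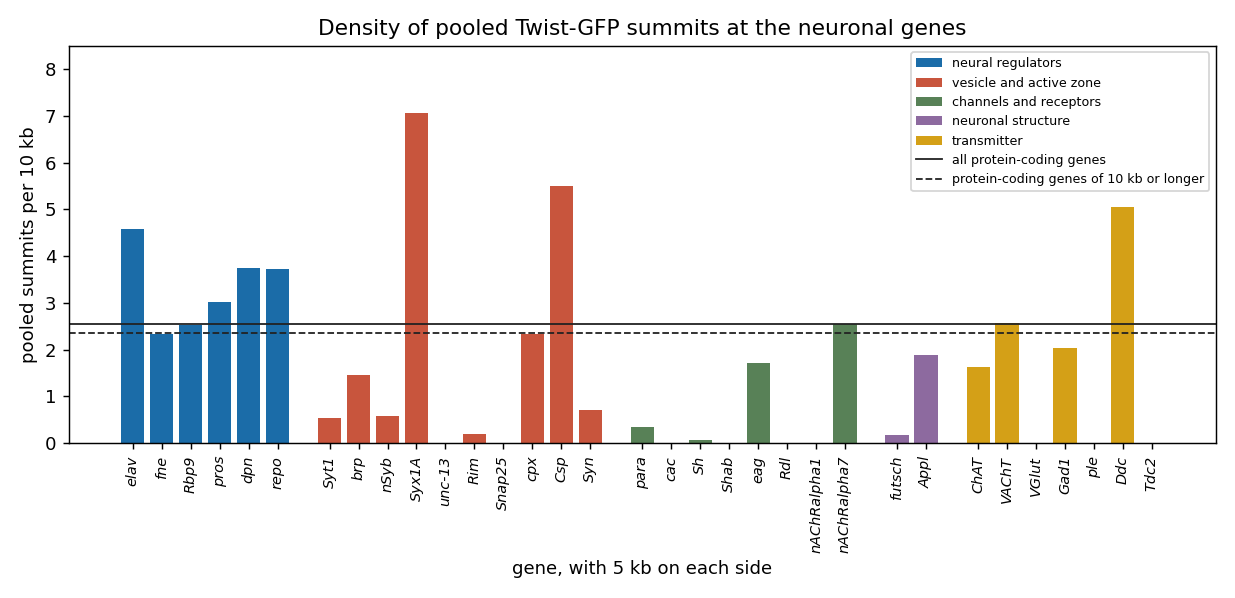
Pooled Twist-GFP summits per 10 kb of gene body and 5 kb on each side, for each neuronal gene, coloured by role. Lines mark all protein-coding genes (2.55) and those of 10 kb or longer (2.35), where a summit in several genes' windows is counted for each. Genes without a bar have no pooled summit.

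Summed over the 33 genes, the pooled density was 1.02 summits per 10 kb, against 2.55 for all protein-coding genes and 2.35 for those of 10 kb or longer. The IDR density was 0.192 per 10 kb, against 0.607 and 0.497. Regulators had 0.629 IDR summits per 10 kb, transmitter genes 0.199, structural genes 0.177, vesicle genes 0.145 and channels 0.0846. Snap25, without a summit, makes up 235.0 kb of the 552.9 kb of vesicle windows. The place of the vesicle genes in this order rests on that gene. The spread within a role was wide: the vesicle genes include Syx1A, with 10 pooled summits in a body of 4.2 kb and its flanks, and Snap25, with none at a body of 225.0 kb.

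The 12 genes with a pooled summit within 500 bp of an own start show how far below the IDR list most of these lie. Beside elav and nAChRalpha7, whose promoter summits are in the IDR list, and pros and Syx1A, given above, the summit at Csp lay 62 bp from a start with pooled rank 11310, rank 9505 in replicate 1 and 16709 in replicate 2. That at fne lay 424 bp from a start with rank 13703, 14587 in replicate 1 and 16066 in replicate 2. Those at eag, at 156 bp and rank 16263, and cpx, at 151 bp and rank 18520, were also matched in both replicates. By contrast, the summit 82 bp from the repo start, rank 17607, had no match in replicate 1, and that 48 bp from the dpn start, rank 28400, none in replicate 2. The one 162 bp from the Ddc start, rank 28171, was matched in neither. At Appl the summit of rank 8812, 408 bp from its start, lay nearer to CG4293.

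**Figure D5:**
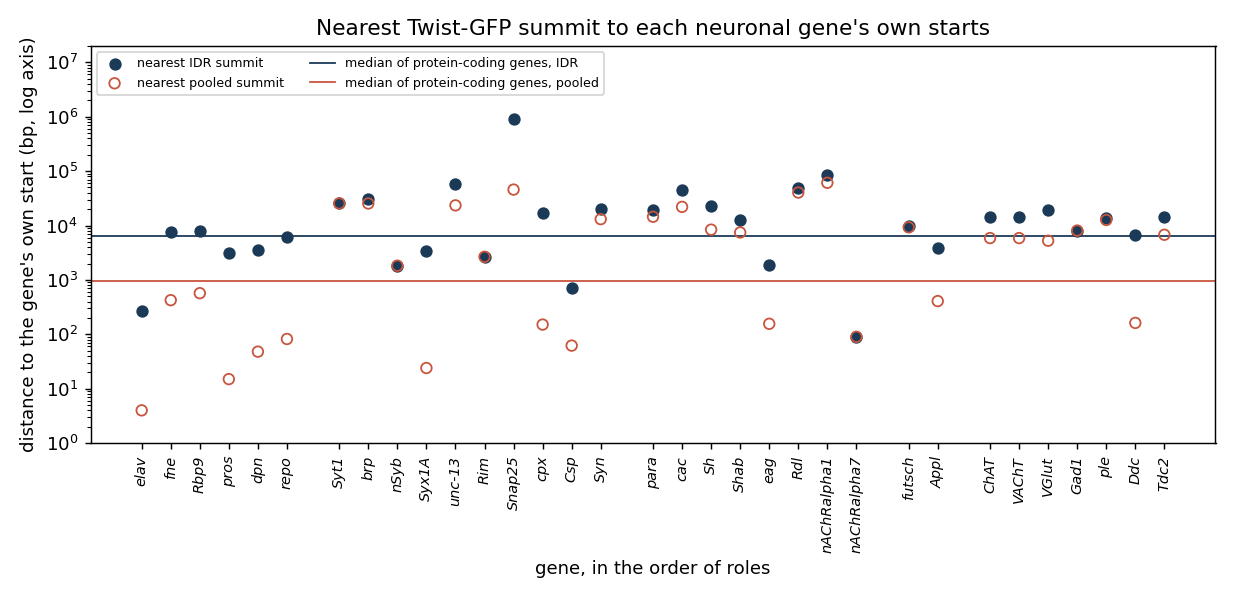
Distance (bp, log axis) from each neuronal gene's own starts to the nearest IDR summit (filled) and the nearest pooled summit (open), whether or not it lies in the gene's window. Lines mark the medians of protein-coding genes, 6428 bp for IDR and 948 bp for pooled summits; Snap25 has its nearest IDR summit 923689 bp away.

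The median distance from an own start to the nearest IDR summit was 12449 bp for the 33 genes, against 6428 bp for all protein-coding genes and 3073 bp for those of 10 kb or longer. To the nearest pooled summit it was 5875 bp, against 948 and 224 bp. Regulators had a median of 65 bp to the nearest pooled summit, channels 11442 bp and vesicle genes 7871 bp.

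E-boxes were sought within 50 bp of each summit, on both strands and for all 10 types. CATATG or CACATG was found at 6 of the 29 summits, 20.7% (9.85 to 38.4%), against 28.2% of all IDR summits. Taken singly, CATATG was at 10.3% of these summits, against 11.6% of all IDR summits, and CACATG at 10.3%, against 18.9%. CAGCTG was at 10.3%, against 7.03%, and each other type at 1 summit or none. In windows 1000 bp to either side the shares with CATATG or CACATG were 6.90% for the neuronal genes and 7.98% for all IDR summits. Of the 9 own-start summits 1 held CATATG or CACATG, the pros summit of rank 5113. No E-box of any type was found at 16 of the 29, 55.2% (37.5 to 71.6%), against 42.8% of all IDR summits. The median GC content of the 101 bases was 31.7%, against 41.6% for all IDR summits, and the summit near CG18428 had 19.8%. The base composition differs between the sets, and its part in the motif counts was not tested.

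A second list of 69 other neuronal genes, likewise chosen with earlier results known, was described in the same way. An IDR summit was present at 33 of the 69, against 50.1% of all protein-coding genes and a class sum of 42.9. One nearest to an own start was present at 18 of the 69, against 22.2% and a class sum of 26.5. By role, 10 of 15 regulators had an own-start IDR summit, against a class sum of 5.6, as had 2 of 15 vesicle genes, against 5.1. Such a summit was present at 3 of 20 channels, against 8.3, 3 of 8 structural genes, against 3.9, and none of 11 transmitter genes, against 3.6. The 3 channels were Shal, GluRIIA and GluRIIB. The last 2 encode glutamate receptor subunits of the muscle membrane, so the list is not of genes of neurons alone.

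The strongest summits of that list were those in the windows of tau, a microtubule-binding protein, at rank 33 and nearest to CG5611, brat, a regulator of neuroblast daughters, at rank 159, and zfh2, at rank 330. Those of brat and zfh2 were nearest to the gene's own start. Among the others named by rank within their role, Lim3 had 565, cpo 1760 by the summit that Rim shares, and Nrg 3509. Rab3 had 1639, Cadps 2226 and comt 4370. KCNQ had 1164, nAChRalpha5 1540 and Hk 2527. DAT had 2613, Ace 3078 and Pu 3294. Of these 12, cpo and Cadps had their own start nearest. No IDR summit was present at 36 of the 69.

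An own-start IDR summit was present at 5 of the 33 neuronal genes, against a class sum of 14.4, and at 11 of 13 early mesoderm genes, against 4.8. The mesoderm list was taken for known Twist targets, with earlier results of these data known, and no test was made between the lists.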

How the data were processed

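Twist-GFP ChIP-seq of 2 replicates of 1 group was used, with replicate numbers from the labels. The authors deposited narrowPeak lists in dm6, per the labels; the accompanying records name 1 control file for both replicates. Neither the aligner nor the peak caller is given in the sources used here. Peaks were ranked within each list by the signal the authors deposited, whose scale is not stated. The −log10 q-value deposited with each peak was not used for ranks, since 100.0% of IDR, 38.4% of pooled, 32.3% of replicate 1 and 43.3% of replicate 2 peaks were tied at its highest value. The labels give fragment sizes of 200 to 800 without a unit.

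Summits were made 1-based and assigned with the Ensembl annotation of the release, without transposable elements (18277 genes), and with the RefSeq Release 6 sequence. A gene's window was its body and 5 kb on each side, a promoter 500 bp around a start, and a match between replicates 100 bp. Length classes were split at 2, 5, 10, 20 and 50 kb, and the class sum adds, over the genes of a list, the share of protein-coding genes of the same class. Intervals are 95% Wilson intervals and cover counting only. No test was run. The counting code was tested on simulated data. All 33 genes, the gene of the nearest start for each summit, and the 3 strongest of each role among the other neuronal genes are named. The genes, roles and lists were chosen with earlier results of these data known. Alternatives were other windows, overlap criteria, matching and motif distances, length classes, the higher-signal peaks only, and each replicate left out, where the highest-signal peaks of the remaining one, as many as the IDR list holds, took its place. Python 3.11.15, numpy 2.4.6, pandas 2.3.3, scipy 1.17.1 and matplotlib 3.10.9 were used.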

Additional observations from a re-analysis of the deposited data

How the results depend on the processing

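The width of the gene window moved the counts of genes and summits in windows. In the gene body alone, 6 of the 33 genes had an IDR summit, against 13.2% of all protein-coding genes and a class sum of 14.4. A pooled summit lay in the body of 14. With 1 kb on each side 8 had an IDR summit, against 30.9% of all protein-coding genes and a class sum of 17.7. With 10 kb 24 had one, against 63.7% and a class sum of 24.5. The shortfall against the class sum seen with 5 kb was thus nearly gone with 10 kb. The IDR summits numbered 10 in the body, 13 within 1 kb and 56 within 10 kb, and other neuronal genes with one 17 in the body. With only the peaks above the median signal, there were 14 IDR summits, 19 other neuronal genes, 2 own-start genes (elav and pros), 1 gene with a promoter summit, 3 summits with CATATG or CACATG and 7 genes with an own-start pooled summit. Within 250 bp of an own start, 1 gene had an IDR summit, and within 1000 bp 3 genes had one. Leaving out each replicate gave 15 to 18 genes with an IDR summit, 22 to 27 with a pooled one, 28 to 33 summits, 35 other neuronal genes, 5 to 7 own-start genes, 2 to 4 with a promoter summit and 12 to 18 with an own-start pooled summit. Without replicate 2, the promoter summits of pros and Syx1A joined those of elav and nAChRalpha7. The cause was not tested. No share of all protein-coding genes is given here for the pooled count in the body, the higher-signal peaks, other promoter distances or left-out replicates. A change in those counts need not be particular to the neuronal genes. The own-start pooled alternatives, and counting ChAT and VAChT as 1 gene (16 genes with an IDR summit), were chosen after seeing the data. Of 198 recomputed counts per gene, 63 moved. Smaller changes, such as pros from 6 to 5 in the gene body alone, were not counted as moved. The counts of the 16 genes without an IDR summit mostly stayed at 0, and those of the other 17 moved more often. For those 16, the gene body alone, 1 kb and the higher-signal peaks could only return 0. With 10 kb on each side, brp and ple had 2 IDR summits each. Ddc, Tdc2, cpx, futsch and fne then had 1 each, so their absence from the IDR list depends on the window. No paired analysis was possible because there is 1 group. Depth is unknown, so a gene without a peak may be below detection.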
